A study of Homo sapiens with 18 samples.

Results

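The NRF2 antioxidant and detoxification genes were followed in A549 cells exposed to silica NPs. The group was a list of 36 gene symbols, and its members were the array probes, other than control spots, that carried one of these names. Of the 36 names 35 had at least 1 probe, and AKR1C2 had none under that name. The 35 genes had 62 probes out of the 41000 distinct probes on the array, 61 of the 62 passed the filter on dim probes, and 17 genes had several probes. All 35 genes kept at least 1 probe, among 21028 gene names that did. A549 is an epithelial line from a human lung adenocarcinoma. The cells were kept for 2 h in serum-free medium with Ludox silica NPs of the type SM30, 9 nm in diameter, or AS30, 18 nm, and were then returned to complete medium for 3 h (SM30 and AS30) or 22 h (AS30 alone). Each of the 3 exposures had its own control group, handled in the same way without NPs, and each of the 6 groups held 3 biological replicates with the letters A, B and C.

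NRF2, encoded by NFE2L2, is a transcription factor that turns on enzymes against oxidants and reactive chemicals. In resting cells KEAP1 holds it and passes it to a ubiquitin ligase for degradation. When KEAP1 is modified by electrophiles, or is drawn away by the autophagy adaptor SQSTM1 (p62), NRF2 accumulates, pairs with a small MAF protein such as MAFG and binds the antioxidant response element of its targets. The targets make glutathione and thioredoxin, supply NADPH, reduce quinones and carbonyls, handle heme and iron, and conjugate or export foreign compounds. A549 cells carry an inactivating alteration of KEAP1 and are known for NRF2 activity without added stress, which limits them as a model of how the pathway is switched on. Silica particles are known to raise reactive oxygen species in many cell types, and the comparison of each exposure with its controls asks whether the transcripts of the pathway moved.

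The letters TGACNNNGC, the core of the antioxidant response element, were searched on both strands of RefSeq promoter windows of 300 bases (250 before to 50 after a start site, build GRCh38.p14). Of the 36 listed genes 27 had a window, and 10 of the 27 (37%) held the core, while 16.1% of all 27305 genes with a window did. HMOX1 and SLC7A11 were among the genes without a window, so that their promoters were not searched. The AP-1 letters TGANTCA, which can overlap the core, were in 4 of the 27 (14.8%) and in 9.37% of all genes. A match describes these letters in this window and is no evidence of binding. The sites of the genes whose levels are given array by array below are shown first, and the sites of ME1 and PIR after them because their core also holds the AP-1 letters. The core is in capitals, each site is read 5′ to 3′ on the strand named, and the number after the strand counts bases from the start site to the core.
KEAP1, chr19:10502807-10502835, strand -, -54: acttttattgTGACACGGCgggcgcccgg
KEAP1, chr19:10502784-10502812, strand +, -31: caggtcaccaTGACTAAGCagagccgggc
GCLM, chr1:93909446-93909474, strand +, -34: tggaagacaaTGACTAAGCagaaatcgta
TXNRD1, chr12:104215670-104215698, strand +, -99: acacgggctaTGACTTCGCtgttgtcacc
TXNRD1, chr12:104215761-104215789, strand -, -8: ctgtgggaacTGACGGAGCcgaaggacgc
TXNRD1, chr12:104286920-104286948, strand -, -102: agagtcagaaTGACAAAGCagaaatccac
ME1, chr6:83431170-83431198, strand -, -137: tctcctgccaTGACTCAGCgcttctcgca
PIR, chrX:15493289-15493317, strand +, 26: agcctcaccgTGACTCAGCgcttcgcggc

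Gene expression was measured on 18 one-colour Agilent arrays, and a level below is the log2 of the normalised spot intensity. Where a gene had several probes, the brightest one stood for it. Between 51.9% and 72.4% of the spots of an array were well above background, and no spot was saturated. This share was 52.4% to 61.9% in the AS30 controls at 3 h and 62.5% to 67.1% in their treated arrays. At 22 h it was 51.9% to 58.4% in the AS30 controls and 56.9% to 67% in the treated arrays. In the SM30 set it was 65.5% to 69.9% in the controls and 69% to 72.4% in the treated arrays. Its part in the results of the exposures was not tested. The 18 arrays lay on 5 slides. One SM30 array and its 3 controls shared a slide, the AS30 arrays at 22 h shared theirs with 1 of their controls, and no slide held both treated and control arrays of AS30 at 3 h. SM30 control A was read in another scan session than the rest of its set. All 5 epithelial markers (KRT8, KRT18, KRT19, CDH1 and EPCAM) were well above background on 18 of 18 arrays, while PTPRC of leukocytes, PECAM1 of endothelium and COL1A2 of fibroblasts were so on 0 arrays. CD3E, CD14 and COL1A1, named for other cell types, were well above background on all 18. The RNA came from whole cultures, so that a change in all cells and a larger change in some of them cannot be told apart.

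Untreated A549 cells expressed nearly the whole list. Of the 35 genes 33 were well above background on all 18 arrays. The exceptions were CYP4F11, a cytochrome P450 above background on 15 arrays, and NFE2L2 itself, on 17. The mean level was above 16 on the log2 scale for 10 genes, on an array whose brightest probe reached 18.03. These 10 included HMOX1 (heme oxygenase), TXN (thioredoxin), PRDX1 (a peroxiredoxin), the aldo-keto reductases AKR1B1, AKR1B10, AKR1C1 and AKR1C3, and the ferritin chains FTH1 and FTL. Levels in the 9 control arrays ranged from 16.40 to 17.07 for HMOX1 and from 12.23 to 12.91 for NQO1, the quinone reductase that is the usual read-out of NRF2. Most genes of the list varied little between replicates. The median SD within a control group was 0.17 on the log2 scale for the 35 genes and 0.26 for all 21028 genes. The list holds many bright probes, and its spread was not compared with that of genes of a similar level. AKR1C1 is near-identical in sequence to AKR1C2, which had no probe under its name, AKR1C3 is a closely related gene, and ferritin has many processed copies, so that signal of relatives in these probes cannot be told apart from their own.

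On the probe that stood for each gene, 2 genes of the list were called after exposure, both of them regulators and both higher. MAFG was higher after SM30 NPs at 3 h, and SQSTM1 was higher after AS30 NPs at 22 h. None of the enzymes or transporters passed the test on that probe when arrays were paired by letter. The second probe of GCLC fell by 0.86 at 22 h (adjusted p = 0.0270 in limma). MAFG kept its call under 15 of 19 alternative settings, SQSTM1 under 9 of 19 and this GCLC probe under 14 of 18. These settings include leaving out pairs of the other exposures, which leaves the gene's own estimate as it was. MAFG lost its call without each of its own pairs in turn. The share of all genes called under each alternative was not computed. Without the pairing limma also called GCLC, with values below 0 after SM30 NPs (adjusted p = 0.0195) and at 22 h (adjusted p = 0.0122), SRXN1 with a value below 0 after AS30 NPs at 3 h (adjusted p = 0.0415), SQSTM1 after SM30 NPs (adjusted p = 0.0209) and TXNRD1 at 22 h (adjusted p = 0.0433), both with values above 0. With SM30, 1 of 35 genes was called (limma on the log2 ratios, Benjamini-Hochberg adjusted p under 0.05 over all probes), against 7.67% of all 21027 genes tested (4.24% higher and 3.43% lower). An unadjusted p under 0.05 was reached by 9 of 35 (25.7%) and by 25.4% of all genes. With AS30 at 3 h, limma called 0 of 35 and 2.62% of all genes (1.61% higher and 1.01% lower). An unadjusted p under 0.05 was reached by 6 of 35 (17.1%), 5 of them with values below 0, and by 25.1% of all genes. With AS30 at 22 h, 1 of 35 was called, and 3.83% of all genes (2.72% higher and 1.11% lower), while 7 of 35 (20%) and 23.7% of all genes had an unadjusted p under 0.05. The 95% interval of the change lay within 2-fold in both directions for 30, 31 and 32 of the 35 genes in the same order. These were 85.7%, 88.6% and 91.4% of the list, and 70.5%, 69.8% and 69.7% of all genes met the same bound. The genes whose interval reached past 2-fold in at least 1 exposure were NFE2L2, SQSTM1, OSGIN1, ALDH3A1, CBR1 and CYP4F11.

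The median change of the 35 genes had no stable sign. It was -0.077 on the log2 scale after SM30 NPs (-0.073 over all genes) but 0.024 when each array was scaled to its 75th percentile. It was -0.099 after AS30 NPs at 3 h (0.016 over all genes) but 0.073 with that scaling. At 22 h it was 0.018 (-0.013 over all genes) and -0.030 with that scaling. All 3 ratios had the same sign in 15 of the 30 genes measured in every pair after SM30 NPs (50%), where 57.3% of all genes did so. The counts were 12 of 34 (35.3%, all genes 45.2%) for AS30 at 3 h and 15 of 33 (45.5%, all genes 44.9%) at 22 h. The plot of all ratios gives every pair, and the cumulative plot sets the 35 changes beside those of all genes.

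**Figure D1:**
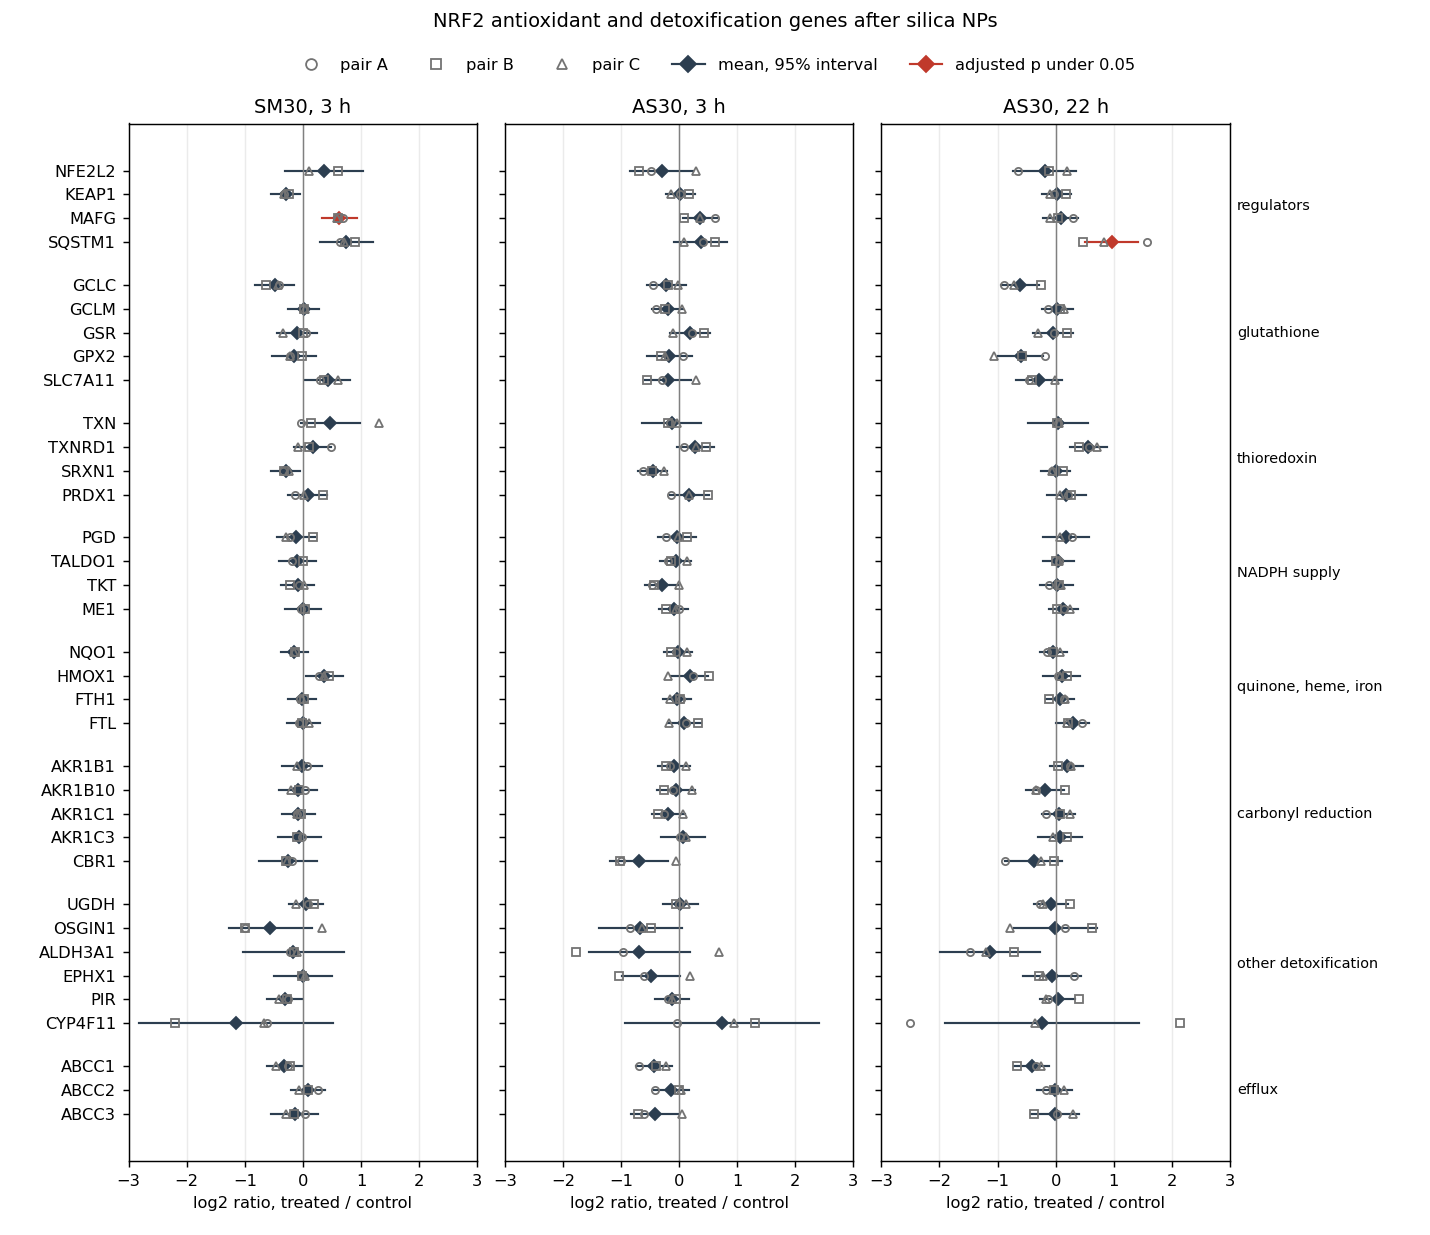
Log2 ratio of treated over control array for the 35 genes, grouped by role, after SM30 NPs at 3 h and AS30 NPs at 3 h and 22 h. Open symbols are the pairs A, B and C, diamonds and bars the mean and its 95% interval from limma, and red marks an adjusted p under 0.05. MAFG after SM30 NPs (0.63) and SQSTM1 after AS30 NPs at 22 h (0.97) are the marked genes, and the dim probe of CYP4F11 has the widest interval.

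**Figure D2:**
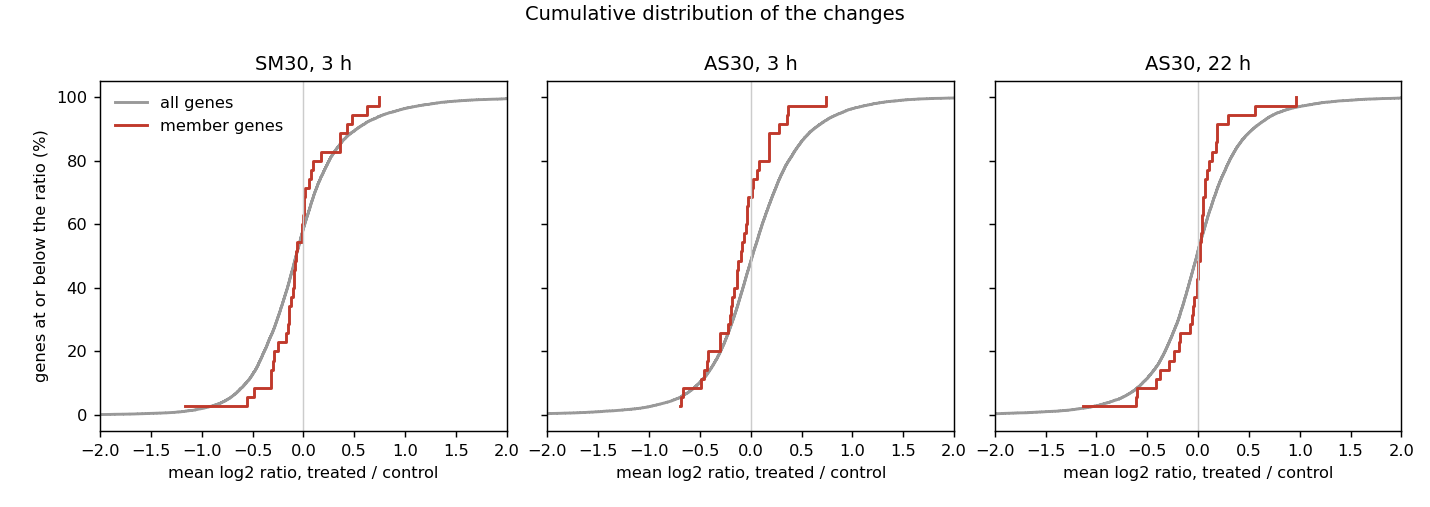
Share of genes (%) at or below a given mean log2 ratio of treated over control, for the 35 member genes (red) and all genes tested (grey), in the 3 exposures. The curves cross 50% at the medians of -0.077, -0.099 and 0.018 for the members. The axis is cut at -2 and 2, beyond which lie only genes outside the list.

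Among the regulators MAFG rose after SM30 NPs. MAFG, a small MAF partner of NRF2, was read by a probe at chr17:77473075-77473134 (build hg18). Its levels were 13.97, 13.86 and 14.14 in the SM30 controls A, B and C and 14.66, 14.47 and 14.71 in the treated cells. Every treated array was above every control, and the change was 0.63 ± 0.13 (SE, n = 3 pairs), 1.54-fold, with adjusted p = 0.0271 in limma. Here and below, groups that do not overlap are a description and no test. The share of all genes whose groups did not overlap was not computed. Within the slide that held 1 treated array and the 3 controls the difference was 0.67. The call was lost with slide as a fixed term (adjusted p = 0.141) and when any one of the SM30 pairs was left out (adjusted p = 0.116, 0.136 and 0.129 without A, B and C).
In the AS30 set at 3 h the control levels of MAFG were 13.81, 14.13 and 14.03 and the treated levels 14.42, 14.23 and 14.39. These groups did not overlap either, but the change of 0.35 ± 0.13 did not pass the test (adjusted p = 0.152 in limma). At 22 h the groups overlapped, with 13.90, 13.78 and 14.02 in the controls and 14.20, 13.83 and 13.93 in the treated cells. A second probe of MAFG changed by 0.41 after SM30 NPs (adjusted p = 0.0684), 0.42 after AS30 NPs at 3 h (adjusted p = 0.0845) and 0.17 at 22 h.

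SQSTM1, the adaptor that can withdraw KEAP1 from NRF2, had a change above 0 in all 3 exposures and passed the test in 1. Its probe lay at chr5:179196315-179196374 (hg18). At 22 h after AS30 NPs its levels were 14.94, 15.40 and 15.51 in the controls and 16.51, 15.89 and 16.34 in the treated cells. The groups did not overlap, and the change was 0.97 ± 0.20 (SE, n = 3 pairs), 1.95-fold, with adjusted p = 0.0419 in limma. Pair A changed most, with a ratio of 1.58 against 0.48 and 0.84 in B and C, and without pair A the change was 0.66 with adjusted p = 0.173. Under 10 of 19 alternatives the call was lost, among them when pair C was left out (1.03, adjusted p = 0.102), with 75th-percentile scaling (1.01, adjusted p = 0.0644) and with slide as a fixed term (0.74, adjusted p = 0.259). On the slide that held the 3 treated arrays and 1 control the difference was 0.74.
After SM30 NPs the levels of SQSTM1 were 14.82, 14.75 and 14.76 in the controls and 15.45, 15.66 and 15.46 in the treated cells. The change of 0.74 ± 0.20 missed the threshold (adjusted p = 0.0593 in limma) and passed it in the fit without pairing by letter (adjusted p = 0.0209). The groups did not overlap. After AS30 NPs at 3 h the levels were 15.78, 15.37 and 15.86 in the controls and 16.19, 15.98 and 15.95 in the treated cells. This change of 0.37 ± 0.20 did not pass (adjusted p = 0.287). It was 0.67 with 75th-percentile scaling (adjusted p = 0.156) and -0.10 with slide as a fixed term.

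NFE2L2 and KEAP1, the factor and its inhibitor, did not pass the test in any exposure. NFE2L2 in the SM30 set read 11.93 and 12.40 in controls B and C, with no value in A, and 11.57, 12.54 and 12.51 in the treated cells. The groups overlapped, and the change over the 2 measured pairs was 0.36 (adjusted p = 0.481 in limma). It became 0.04 in the fit of all arrays without pairing. With slide as a fixed term it was -0.60, which rests on treated array A, the only one on a slide with its controls. A second, dimmer probe of NFE2L2 read 7.31, 7.29 and 7.07 in the SM30 controls and 7.09, 7.02 and 7.20 in the treated cells. Its groups overlapped in every set. In the AS30 set at 3 h the brighter probe of NFE2L2 read 12.45, 12.97 and 12.04 in the controls and 11.96, 12.26 and 12.33 in the treated cells. At 22 h the brighter probe read 12.21, 11.77 and 11.73 in the controls and 11.57, 11.65 and 11.93 in the treated cells. Both AS30 sets overlapped with their controls, with changes of -0.30 (adjusted p = 0.452) and -0.19 (adjusted p = 0.680).
KEAP1 read 12.43, 12.38 and 12.41 in the SM30 controls and 12.12, 12.14 and 12.09 in the treated cells. All treated arrays were below all controls, but the change of -0.29 ± 0.11 did not pass (adjusted p = 0.143 in limma). In the AS30 set at 3 h KEAP1 read 12.64, 12.55 and 12.96 in the controls and 12.66, 12.72 and 12.81 in the treated cells, and at 22 h it read 12.66, 12.77 and 12.74 against 12.63, 12.95 and 12.66. These groups overlapped, and both changes were 0.02.

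**Figure D3:**
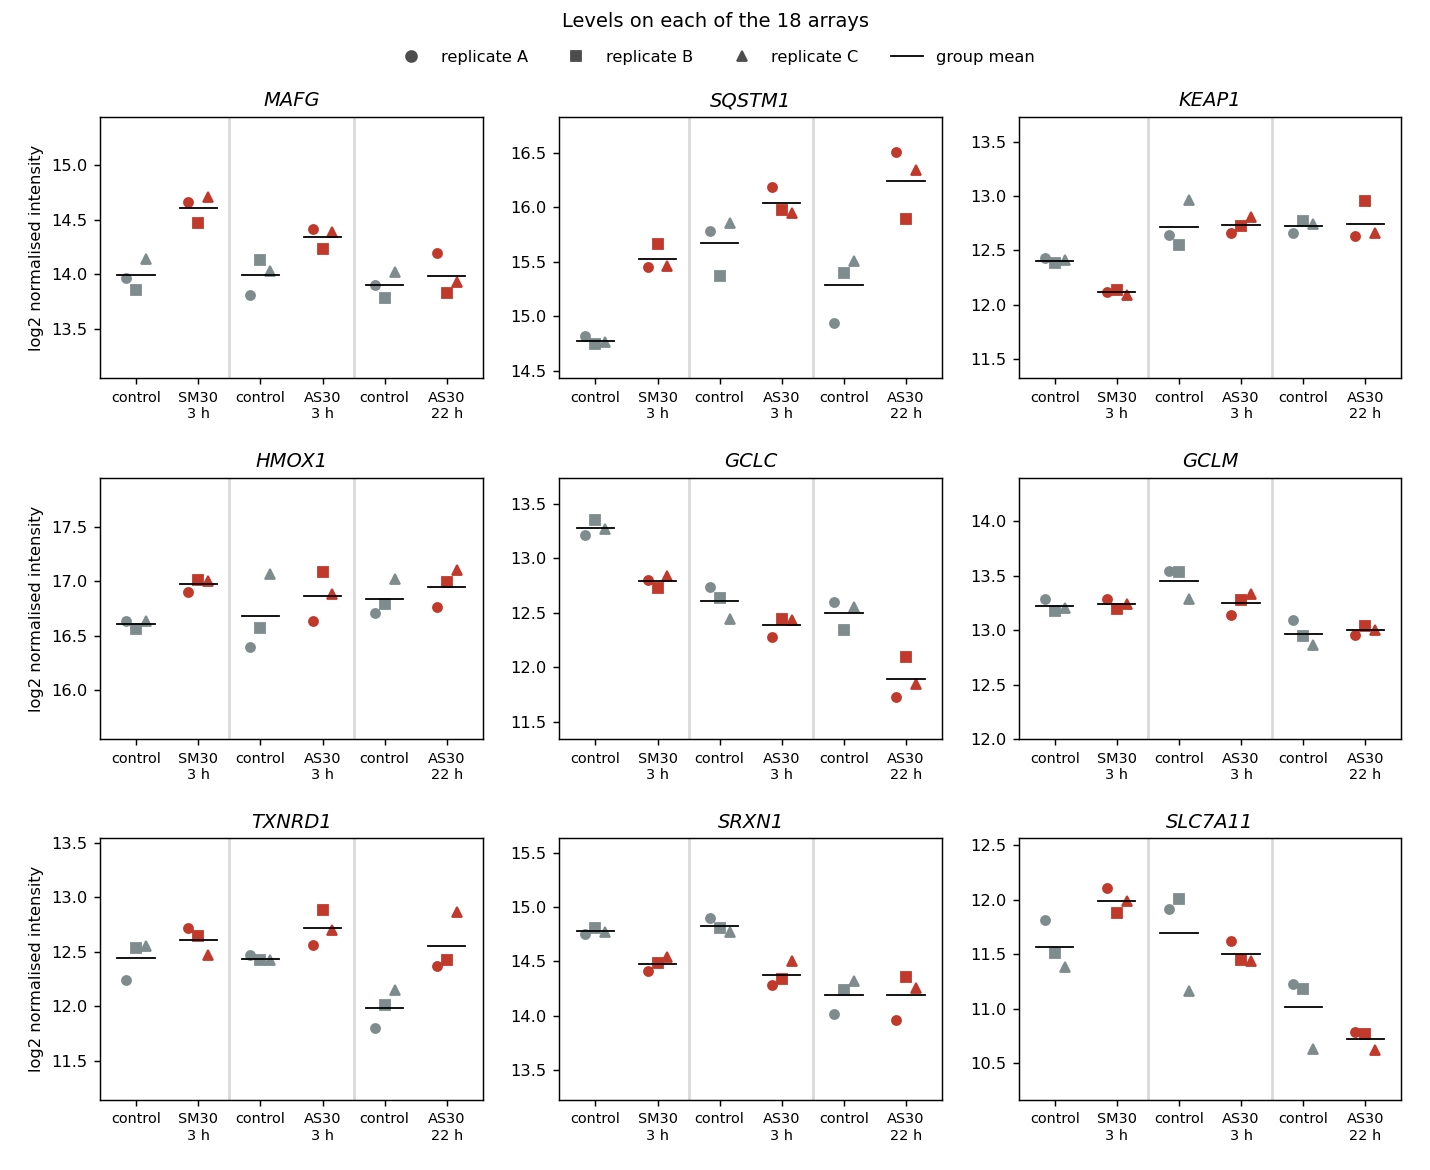
Level (log2 normalised intensity) on each array for 9 genes in the 3 control groups (grey) and 3 exposed groups (red). Symbols are the replicates A, B and C and the line is the group mean. Each panel spans the same range of log2 units around its own gene, so that heights compare groups within a gene and not genes with each other.

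Of the 5 glutathione genes limma called 0 in any exposure on the probe that stood for the gene, and 2, 0 and 2 had an unadjusted p under 0.05 in the order SM30, AS30 at 3 h and AS30 at 22 h, which is kept below. GCLC is the catalytic subunit of glutamate-cysteine ligase, the first step of glutathione synthesis. Its levels were 13.21, 13.35 and 13.27 in the SM30 controls and 12.80, 12.73 and 12.84 after SM30 NPs, a change of -0.49 ± 0.15 (adjusted p = 0.0814 in limma). At 22 h after AS30 NPs they were 12.60, 12.34 and 12.55 in the controls and 11.73, 12.09 and 11.85 in the treated cells, a change of -0.61 ± 0.15 (adjusted p = 0.0577). In both sets the groups did not overlap. At 3 h after AS30 NPs they did, with 12.74, 12.64 and 12.44 in the controls and 12.28, 12.44 and 12.43 in the treated cells (-0.22, adjusted p = 0.371). The second probe of GCLC, at chr6:53471396-53471459 (hg18), fell by 0.86 at 22 h (SE 0.15, adjusted p = 0.0270 in limma), with 10.13, 10.08 and 10.14 in the controls and 9.00, 9.56 and 9.22 in the treated cells. Without pair A that fall was -0.72 (adjusted p = 0.146), and without pair C it was -0.83 (adjusted p = 0.0874). In the fit without pairing the bright probe passed the test after SM30 NPs (adjusted p = 0.0195) and at 22 h (adjusted p = 0.0122), as it did with normexp background correction (-0.51, adjusted p = 0.0335, and -0.65, adjusted p = 0.0268), and with slide as a fixed term it passed in neither (adjusted p = 0.238 and 0.118).
GCLM is the modifier subunit of the same ligase. Its levels were 13.29, 13.18 and 13.20 in the SM30 controls and 13.29, 13.19 and 13.24 in the treated cells. At 3 h after AS30 NPs they were 13.54, 13.53 and 13.29 in the controls and 13.14, 13.28 and 13.33 in the treated cells, and at 22 h 13.09, 12.95 and 12.86 against 12.96, 13.04 and 13.00. All 3 sets overlapped on this probe, with changes of 0.01, -0.20 and 0.03 (adjusted p from 0.324 to 0.955 in limma). The second probe of GCLM differed from it. After SM30 NPs it read 12.87, 12.81 and 12.58 in the controls and 13.10, 13.15 and 12.95 in the treated cells, which did not overlap, and its changes of 0.31, -0.28 and -0.25 in the order of the sets did not pass the test either (adjusted p = 0.211, 0.261 and 0.332 in limma).
SLC7A11, the cystine importer that feeds glutathione synthesis, read 11.82, 11.51 and 11.38 in the SM30 controls and 12.11, 11.88 and 11.99 after SM30 NPs. The treated arrays were all higher, but the change of 0.42 ± 0.17 did not pass (adjusted p = 0.169 in limma). After AS30 NPs at 3 h it read 11.92, 12.01 and 11.16 in the controls and 11.62, 11.45 and 11.44 in the treated cells, and at 22 h 11.23, 11.18 and 10.63 against 10.79, 10.77 and 10.62. The groups overlapped in both, with changes of -0.19 and -0.29. GSR (glutathione reductase) and GPX2 (a glutathione peroxidase) ranged from -0.60 to 0.18 over the exposures, and the lowest of these values, GPX2 at 22 h, had adjusted p = 0.0847.

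Of the 4 thioredoxin genes limma called 0, and 1 had an unadjusted p under 0.05 in each exposure. TXNRD1, thioredoxin reductase, read 11.80, 12.01 and 12.15 in the controls at 22 h and 12.37, 12.42 and 12.86 after AS30 NPs. The groups did not overlap, and the change of 0.56 ± 0.14 missed the threshold (adjusted p = 0.0621 in limma) and passed it without pairing (adjusted p = 0.0433). At 3 h its levels were 12.47, 12.42 and 12.42 in the AS30 controls and 12.56, 12.88 and 12.70 in the treated cells, a change of 0.28 (adjusted p = 0.256). In the SM30 set they were 12.24, 12.53 and 12.55 in the controls and 12.72, 12.64 and 12.47 in the treated cells, which overlapped.
SRXN1 is sulfiredoxin, which restores overoxidised peroxiredoxins. In the SM30 set it read 14.75, 14.81 and 14.77 in the controls and 14.41, 14.49 and 14.54 in the treated cells, a change of -0.30 ± 0.11 (adjusted p = 0.134 in limma). In the AS30 set at 3 h it read 14.90, 14.81 and 14.77 in the controls and 14.28, 14.34 and 14.50 in the treated cells, a change of -0.46 ± 0.11 (adjusted p = 0.0650). In both sets every treated array read below every control, and the AS30 value passed the test without pairing (adjusted p = 0.0415). With normexp background correction SRXN1 was called lower in both, by values of -0.36 after SM30 NPs (adjusted p = 0.0183 in limma) and -0.45 after AS30 NPs (adjusted p = 0.0230). With 75th-percentile scaling the values were -0.20 and -0.29 and neither was called. At 22 h SRXN1 read 14.02, 14.24 and 14.32 against 13.96, 14.36 and 14.26, and the groups overlapped. The change of TXN after SM30 NPs was 0.47 (adjusted p = 0.231), and it came from pair C with a ratio of 1.31, whose control array read 15.36 while the other TXN controls read 16.32 to 16.68. The values of PRDX1 were 0.08 to 0.18.

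The 4 NADPH genes PGD, TALDO1, TKT (pentose phosphate pathway) and ME1 (malic enzyme) had values from -0.31 to 0.18. Limma called 0 of them, and 0, 1 and 0 had an unadjusted p under 0.05. Of the 4 quinone, heme and iron genes limma called 0, and 1, 0 and 1 had an unadjusted p under 0.05. HMOX1 read 16.63, 16.56 and 16.63 in the SM30 controls and 16.90, 17.01 and 17.00 after SM30 NPs. Every treated array was higher, but the change of 0.36 ± 0.14 did not pass (adjusted p = 0.15 in limma, 95% interval 0.05 to 0.68). In the AS30 sets HMOX1 overlapped with its controls, which read 16.40, 16.57 and 17.07 at 3 h and 16.71, 16.79 and 17.02 at 22 h. The treated cells read 16.63, 17.08 and 16.88 at 3 h and 16.76, 16.99 and 17.10 at 22 h. The change at 3 h was 0.18 (adjusted p = 0.445 in limma) and 0.59 with 75th-percentile scaling (adjusted p = 0.177), and that at 22 h was 0.11 (adjusted p = 0.687) and 0.05 with that scaling.
NQO1 did not pass the test in any set. It read 12.59, 12.60 and 12.57 in the SM30 controls and 12.45, 12.46 and 12.42 in the treated cells, a change of -0.15 ± 0.10 (adjusted p = 0.422 in limma) between groups that did not overlap. The AS30 groups overlapped. In the AS30 set at 3 h it read 12.91, 12.71 and 12.56 against 12.85, 12.56 and 12.69, and at 22 h 12.56, 12.33 and 12.23 against 12.42, 12.28 and 12.30. Its 95% intervals ran from -0.38 to 0.09, from -0.26 to 0.21 and from -0.27 to 0.20 in the order of the sets, and so excluded a change of 2-fold in either direction. FTH1 and FTL had changes of -0.04 to 0.29. The 5 probes of FTH1 disagreed after SM30 NPs, where 1 probe had a mean of 1.00 (adjusted p = 0.285) from ratios of -0.04, -0.13 and 3.17 and the other 4 had means of -0.17 to 0.14.

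Of the 5 carbonyl reductases limma called 0, and 0, 1 and 0 had an unadjusted p under 0.05. The 4 aldo-keto reductases had changes of -0.19 to 0.19, and CBR1 (carbonyl reductase) of -0.25, -0.69 and -0.38 in the order of the sets (adjusted p = 0.511, 0.115 and 0.339). Of the 6 other detoxification genes limma called 0, and 1, 0 and 1 had an unadjusted p under 0.05. The change of ALDH3A1, an aldehyde dehydrogenase, was -1.13 ± 0.38 at 22 h with ratios of -1.48, -0.72 and -1.20 (adjusted p = 0.128 in limma). At 3 h after AS30 NPs its ratios were -0.96, -1.78 and 0.68, so that pair C went the other way from A and B. Without pair C limma called 4 genes of the list in that exposure, all lower (ALDH3A1, CBR1, EPHX1 and SRXN1). The share of all genes called in that fit was not computed. Of the 3 efflux pumps limma called 0, and 1, 2 and 1 had an unadjusted p under 0.05. ABCC1, an exporter of glutathione conjugates, had ratios below 0 in all 9 pairs, from -0.69 to -0.22, with adjusted p of 0.179, 0.109 and 0.118 in the order of the sets.

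The difference between the responses to SM30 and AS30 NPs at 3 h was tested in the same fit, as the only comparison between the particle types at a matched time. Limma called 0 of 35 genes, 1 had an unadjusted p under 0.05, and 0.0143% of all genes were called, all of them higher (15.4% of all genes had an unadjusted p under 0.05). That gene was SLC7A11, with a difference of 0.61 ± 0.24 (SM30 minus AS30, 95% interval 0.06 to 1.17, adjusted p = 0.307). For 26 of 35 genes (74.3%) the interval of the difference lay within 2-fold in both directions, as it did for 56.2% of all genes. A bound of 2-fold is wider than the change of MAFG (0.63 on the log2 scale). An interval within it therefore does not show that the particles acted alike on a gene. The AS30 response at 22 h minus that at 3 h also gave 0 calls of 35 in limma, 1 at an unadjusted p under 0.05 and 0.0388% of all genes called (0.0194% higher and 0.0194% lower, with 18.2% at an unadjusted p under 0.05). That gene was SRXN1 (0.46 ± 0.15, adjusted p = 0.216). MAFG passed the test with SM30 NPs and SQSTM1 at 22 h, and neither gene was called in either difference between responses. SM30 at 3 h was not tested against AS30 at 22 h.

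In untreated cells SRXN1 and GCLM were lower at 22 h than at 3 h, although several alternatives ended one or both calls. Between the AS30 control groups 2 of 35 genes were called, both lower at 22 h (limma on the 18 arrays), while 1.34% of all genes were called (0.779% lower). The difference was -0.63 ± 0.12 for SRXN1 (adjusted p = 0.0170) and -0.48 ± 0.10 for GCLM (adjusted p = 0.0318), from the levels given above. On these 2 probes every control at 22 h read below every control at 3 h. The second probe of GCLM read 12.30, 12.25 and 11.99 at 22 h and 12.59, 12.85 and 12.29 at 3 h, which overlapped. Of the 35 genes 30 had a difference below 0, and the median was -0.146 with 0.022 over all genes. With 75th-percentile scaling 22 of 35 were below 0 and the median was -0.062. The 3 h control C lay with the 22 h controls rather than with A and B. Its median level over the list was 13.29, with 13.19 to 13.36 at 22 h and 13.81 and 13.84 in A and B, and its share of spots well above background was 52.4%, with 51.9% to 58.4% at 22 h and 61.7% and 61.9% in A and B. In the SM30 controls, also untreated cells at 3 h, the median level was 13.40, 13.35 and 13.31 and the share was 65.5% to 69.9%. The part of these array values in the difference between 22 h and 3 h was not tested. NQO1 (-0.35), TXNRD1 (-0.45), SLC7A11 (-0.68), AKR1C1 (-0.36) and EPHX1 (-0.73), a microsomal epoxide hydrolase, had an unadjusted p under 0.05 and did not pass the adjustment (adjusted p from 0.129 to 0.178). On the slide that held the 3 controls at 3 h and control A at 22 h the median difference was -0.162 over 34 genes, 28 of them below 0 (82.4%, against 49.4% of all genes). SRXN1 differed there by -0.81 and GCLM by -0.36. SRXN1 lost its call with 75th-percentile scaling (-0.58, adjusted p = 0.0628 in limma), GCLM lost it with the mean of all probes of a gene, and neither was called with slide as a fixed term. The count of called genes of the list was 0 without the 3 h control A and 6 without the 3 h control C, whose levels of GCLM and SLC7A11 were the lowest of its group. For these fits the share of all genes called was not computed.

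The SM30 controls and the AS30 controls at 3 h were compared as a measure of how far untreated cells of different sets differed. Limma called 6 of 35 genes, and 26.2% of all genes (15% higher and 11.2% lower, with 38.6% at an unadjusted p under 0.05). GCLC and UGDH, which makes the precursor of glucuronides, were higher in the SM30 controls, by 0.67 and 0.39. SQSTM1, ABCC1, EPHX1 and PGD differed by -0.89, -0.58, -0.96 and -0.64. Set, slide and scan session cannot be told apart here, as no scan session held arrays of both the SM30 and the AS30 sets.

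**Figure D4:**
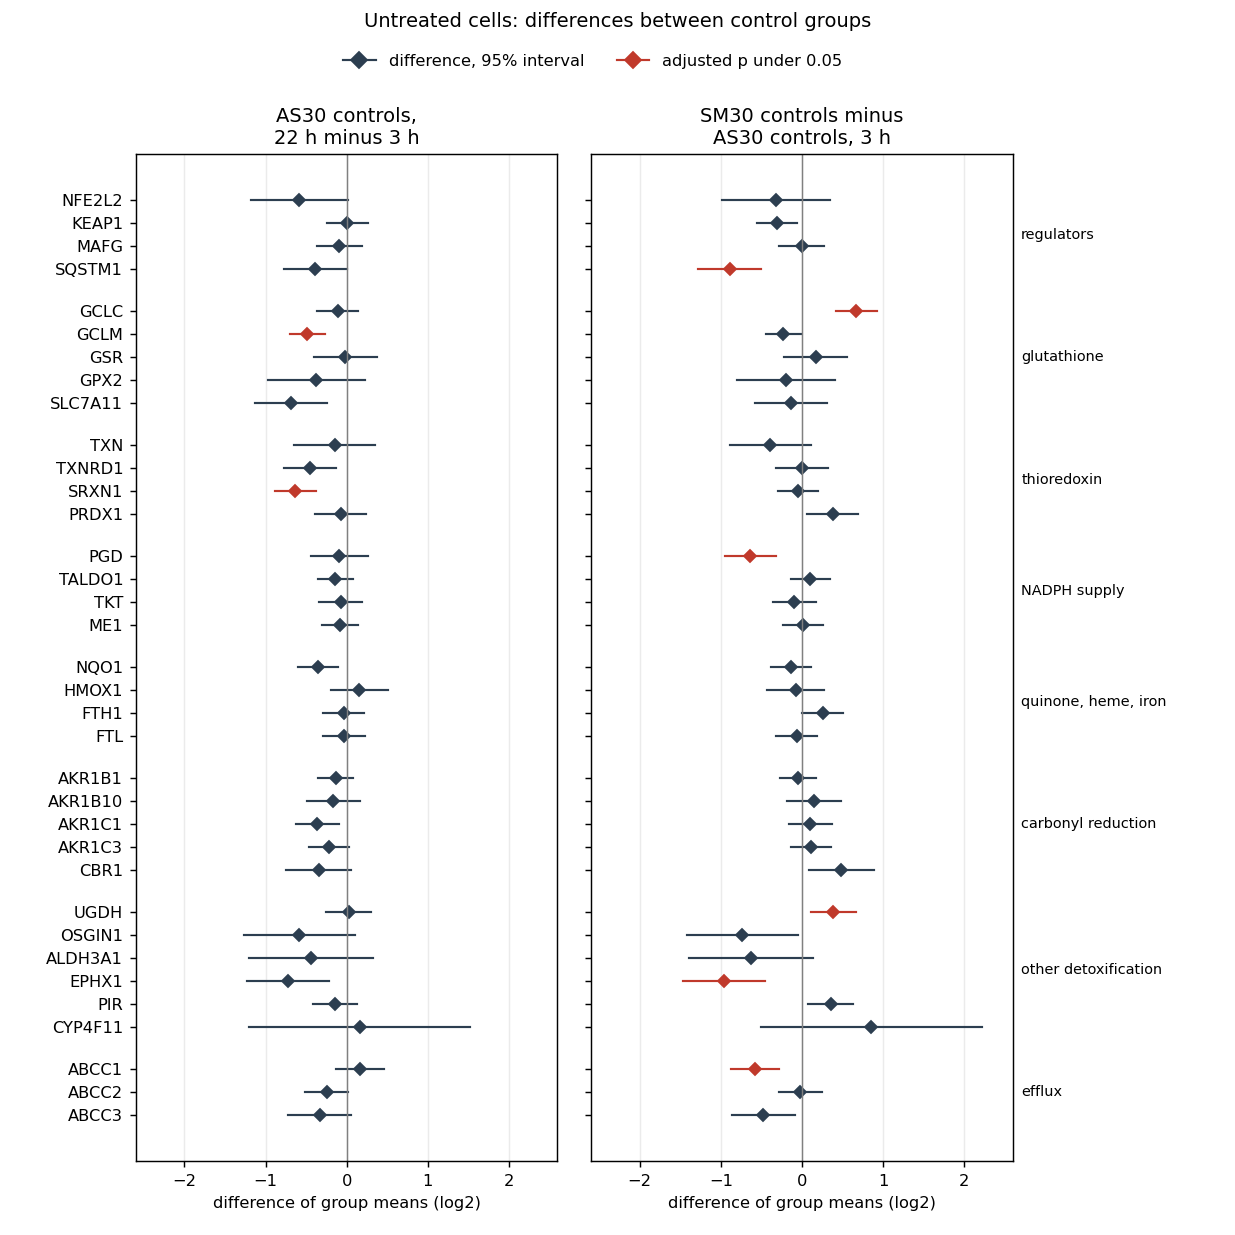
Difference of group means (log2) between control groups of untreated cells for the 35 genes by role, with 95% intervals from limma. Red marks an adjusted p under 0.05. On the left (AS30 controls, 22 h minus 3 h) 30 of 35 genes lie below 0, and on the right (SM30 minus AS30 controls at 3 h) 6 genes are marked, in both directions.

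Further genes came from 3 lists outside the 35, of NRF2 regulators and partners, of other NRF2 target genes and of other oxidant-removing enzymes. The last list was kept apart from the NRF2 target genes. Among 12 tested regulators and partners of NRF2, 3 were called after SM30 NPs, all higher, 1 after AS30 NPs at 3 h and 0 at 22 h. The shares over all genes were 7.67%, 2.62% and 3.83%, and each list holds few genes. An unadjusted p under 0.05 was reached by 4, 4 and 5 of the 12 regulators in limma (33.3%, 33.3% and 41.7%), by 3, 6 and 11 of 32 other NRF2 target genes (9.38%, 18.8% and 34.4%) and by 4, 2 and 6 of 19 other oxidant-removing enzymes, against 25.4%, 25.1% and 23.7% of all genes. The 3 were BACH1 (0.96 ± 0.12, adjusted p = 0.00435), the repressor that competes with NRF2 for its element, MAFF (1.1 ± 0.25, adjusted p = 0.0338), another small MAF protein, and GSK3B (0.55 ± 0.13, adjusted p = 0.0367), a kinase that marks NRF2 for degradation. MAFK, also a small MAF protein, was the one called with AS30 NPs (0.76 ± 0.15, adjusted p = 0.0423), and its value with SM30 NPs was 0.58 (adjusted p = 0.0517). Of the 32 other targets 2 were called after SM30 NPs. SESN2, a sestrin, rose by 1.41 ± 0.21 (adjusted p = 0.00799), and CYP4F3 fell by 0.98 (adjusted p = 0.0393). RIT1 at 3 h (1.18, adjusted p = 0.0469) and AKR1A1 at 22 h (0.68, adjusted p = 0.0354) were the only ones called with AS30 NPs.
Of 19 other oxidant-removing enzymes SOD2, the mitochondrial superoxide dismutase, was the one called in each exposure. It rose by 1.93 ± 0.29, 1.47 ± 0.29 and 1.58 ± 0.29 (adjusted p = 0.00836, 0.0427 and 0.0316 in limma), and all 9 of its ratios were above 0, from 0.60 to 2.35. With slide as a fixed term 2 of these 11 calls outside the list remained past the threshold, BACH1 (1.11, adjusted p = 0.0344) and SESN2 (1.27, adjusted p = 0.0344) after SM30 NPs, and all 11 kept their direction. With normexp background correction the change of BACH1 was 0.60 and that of SESN2 0.60, both still called after SM30 NPs, while MAFF (0.57, adjusted p = 0.0564) and CYP4F3 (-0.13, adjusted p = 0.201) lost the call.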

How the data were processed

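Total RNA of 18 A549 cultures was labelled with Cy3 and hybridised to one-colour Agilent arrays, and the deposited scanner files (Agilent Feature Extraction 10.5.1.1) hold linear intensity values that the software had background-corrected. The authors also deposited a table of normalised intensity, used here as an alternative. Of 45015 spots on an array 43376 were no controls. Their log2 intensity was quantile normalised over the 18 arrays, spots not above background or marked as outliers were set missing, spots of 1 probe were averaged, and probes with over 33% missing values were removed, leaving 28665 of 41000 probes. The study's methods take each treated sample relative to its control and test the 3 exposures as classes with SAM. Here the letter was taken as the match between treated and control arrays, which the methods do not spell out, and the 9 log2 ratios were fitted as 3 classes in limma 3.58.1 (R 4.3.3, 6 residual degrees of freedom), with Benjamini-Hochberg adjustment over all probes and a threshold of 0.05. Control groups were compared in a limma fit of all 18 arrays with 6 groups. The fit was tested on simulated data for SM30 at 3 h over 23030 probes, where 85% of changes of 2 and 58% of changes of 1 on the log2 scale were recovered. The number of arrays limits the precision.

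Every listed gene was accounted for, array values were given for 8 genes of the pathway and for members called in an exposure, and other genes were named from 3 further lists where called. ALDH3A1, CBR1, ABCC1 and other members given with values outside that rule were picked once the values had been seen. The members and lists were chosen with earlier results of these data known, and no p-value was adjusted over a list alone. Alternatives were another scaling, background correction, filter or probe rule, the deposited table, fits without pairing or with slide as a term, and leaving out each replicate. The same alternatives for genes outside the list, and the comparison of AS30 controls within 1 slide, were chosen after seeing the data. Probe coordinates are those of the files (hg18), and promoters came from RefSeq.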

Additional observations from a re-analysis of the deposited data

How the results depend on the processing

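The counts of called genes depended on the processing, and no result changed direction past the threshold. All counts here are of genes of the list. The share of all genes called under each alternative was not computed, so that a rise over the whole array cannot be told apart from a change of the list. With 75th-percentile scaling the count was 0 for AS30 at 22 h, 1 between the AS30 controls and 12 between the SM30 and AS30 controls, and the medians were 0.024 for SM30 and 0.073 for AS30 at 3 h. With normexp background correction the counts were 3 for SM30, 1 for AS30 at 3 h, 2 at 22 h and 10 between the SM30 and AS30 controls, and the medians were -0.029 for SM30 and -0.041 at 22 h. With all spots kept the count at 22 h was 0, and with probes detected on all 18 arrays it was 2 for SM30 and 2 at 22 h. With the mean of all probes it was 2 at 22 h and 1 between the AS30 controls. The letters did not pair the cultures by the data (same-letter correlations of -0.091 to 0.48 over 23030 probes), and without the replicate block of the ratios the counts were 3 for SM30, 1 for AS30 at 3 h and 3 at 22 h. With slide as a fixed block and no replicate block they were 0 for SM30, 0 at 22 h and 0 between the AS30 controls, and the SM30 and AS30 controls could not be compared in that fit. With slide as a random block and no replicate block they were 3, 3 and 3 in the exposures and 11 between the SM30 and AS30 controls. The cause was not tested for any of these changes. Leaving out 1 replicate gave counts of 0 to 2 for SM30, 0 to 4 for AS30 at 3 h, 0 to 2 at 22 h, 0 to 6 between the AS30 controls and 5 to 8 between the SM30 and AS30 controls. The medians were then -0.077 to -0.031 for SM30, -0.163 to -0.066 for AS30 at 3 h and -0.009 to 0.04 at 22 h. The SM30 count was 0 without SM30 pair A, B or C and 2 (MAFG and SQSTM1) without AS30 22 h pair A or B. The count at 22 h was 0 without any 1 SM30 pair, AS30 3 h pair A or B, or AS30 22 h pair A or C. It was 2 without AS30 3 h pair C (ALDH3A1 and SQSTM1) or AS30 22 h pair B (GCLC and SQSTM1). Between the AS30 controls it was 1 (SRXN1) without SM30 control B, AS30 3 h control B or AS30 22 h control B or C. Both differences between responses had 0 calls under all 19 alternatives. MAFG kept its call under 15 of 19 alternatives (0.52 to 0.67, adjusted p = 0.00576 to 0.141 in limma), SQSTM1 at 22 h under 9 of 19 (0.66 to 1.21, adjusted p = 0.00745 to 0.259) and the second GCLC probe under 14 of 18 (-1.03 to -0.58, adjusted p = 0.015 to 0.28). Those alternatives that leave out a pair of another exposure cannot change the estimate itself, so that these tallies do not measure how stable it is.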
